A study of Drosophila melanogaster with 4 samples.

Results

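The wild-type (WT) testis transcriptome was described from the 2 WT libraries of a series of 4. They came from testes of males of the Canton S strain at 5 days of age, for which the labels name no mutant allele and no treatment. The other 2 libraries were from testes of *sws*1 mutant males of the same age and were not used here. Each WT library was a biological replicate made from 30 pairs of testes, raised at 25 °C, and held total RNA from which ribosomal RNA had been removed. No gene was selected: all genes of the count table were members of the description, and no test between conditions was made.

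The libraries held 4498060 (replicate 1) and 2692475 (replicate 2) counts over 29939 transcripts, of which 29929 were matched to 13771 genes, all of them protein-coding. Counts of a gene's transcripts were summed. Abundance is given as CPM (counts scaled to the library total), which measures the share of the library that a gene took, or as TPM, in which counts were first divided by the merged exon length, so that genes of different length can be compared, and both are scaled to the same sum of 1000000. Values in pairs are those of replicate 1 and replicate 2, and with 2 libraries the difference within a pair is the whole measure of error. A lower level of a cell type's genes in a whole organ can come from fewer cells or from less RNA per cell, and these cannot be told apart.

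The *Drosophila* testis is a coiled tube in which germline stem cells, held at its tip by somatic hub cells, give rise to spermatogonia, spermatocytes and, after meiosis, spermatids. Each germline cyst is wrapped in a pair of somatic cyst cells, and the tube is covered by muscle and pigment cells. Most genes needed for sperm differentiation are transcribed in primary spermatocytes under the control of the testis meiotic arrest complex (tMAC) and testis-specific TATA-binding-protein-associated factors (TAFs), and many of these messages are stored and translated only after meiosis. A spermatid then elongates, repacks its chromatin with protamine-like proteins and fills its mitochondrial derivative with paracrystalline material.

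At least 10 counts in each library were found for 9322 genes, 67.7% of those listed, and these genes are referred to as detected. At least 1 count in each library was found for 11556 genes. A further 969 genes had counts in a single library, never more than 44, and 1246 genes (9.05%) had 0 counts in both. A count of 0 allowed up to 3 counts, which is 0.667 CPM in replicate 1 and 1.11 CPM in replicate 2. Replicate 1 was 1.67 times deeper and had 10019 genes with at least 10 counts against 9399 in replicate 2. At the depth of replicate 2, the shares measured in replicate 1 would have given 9356 such genes.

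The median detected gene stood at 18.6 and 19.3 TPM, with quartiles of 6.63 and 70.8 TPM on the mean of both libraries. Levels of 1000 TPM or more were reached by 134 genes, which held 24.7% and 24.3% of the counts. Another 1721 genes lay between 100 and 1000 TPM with 47.2% and 46.4% of the counts. The 4247 genes between 10 and 100 TPM held 23.2% and 24.1%, and the 4280 genes between 1 and 10 TPM held 4.74% and 5.01%. No gene dominated the library. The most abundant gene by CPM took 1.49% of the counts in replicate 1 (95% Wilson interval 1.48 to 1.503) and 1.49% in replicate 2 (1.47 to 1.501), and the 10 most abundant took 6.46% (6.43 to 6.48) and 6.44% (6.41 to 6.47). The first 580 genes held 50% of the mean CPM and the first 3869 held 90%. These intervals cover counting error only, since reads without molecular identifiers are not independent molecules.

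By length-corrected level, *CG18628* stood far above every other gene. This short protein-coding gene on 3L (10639740 to 10640136 in BDGP6, 334 exon bases, 1 transcript) received 59210 and 30838 counts, or 50125 and 44577 TPM. The next gene was mt:CoI, the mitochondrially encoded subunit of cytochrome c oxidase, at 12356 and 12581 TPM, and it took the most counts of all, 67119 and 40024. It was followed by mt:CoIII (9659 and 9537 TPM) and *CG12699* on 2R (7730 and 7609 TPM). The gap between *CG18628* and mt:CoI was larger than the spread between the libraries for either gene.

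Of the 25 genes of highest TPM, 14 are known only by a CG number. *CG31226* (6926 and 7424 TPM), *CG9920* (6881 and 6133 TPM), *CG31820* (5928 and 5935 TPM), *CG10252* (5779 and 5880 TPM) and *CG9016* (5307 and 5678 TPM) lay in the first 11. The remaining CG genes, *CG31740*, *CG31988*, *CG15219*, *CG17376*, *CG8701*, *CG46059* and *CG34168*, lay between 3785 and 5162 TPM on the mean. The named genes were *Mst84Db*, *Mst87F* and *Mst84Dc*, which encode small cysteine-rich proteins of the sperm tail, *scpr-A* and *scpr-C*, whose transcripts appear after meiosis, *Jhbp5*, named as a juvenile hormone binding protein, mt:CoII and mt:Cyt-b. *RpL41*, with 320 exon bases and 3456 and 3543 TPM, was the 25th and the first cytoplasmic ribosomal protein gene.

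**Figure D1:**
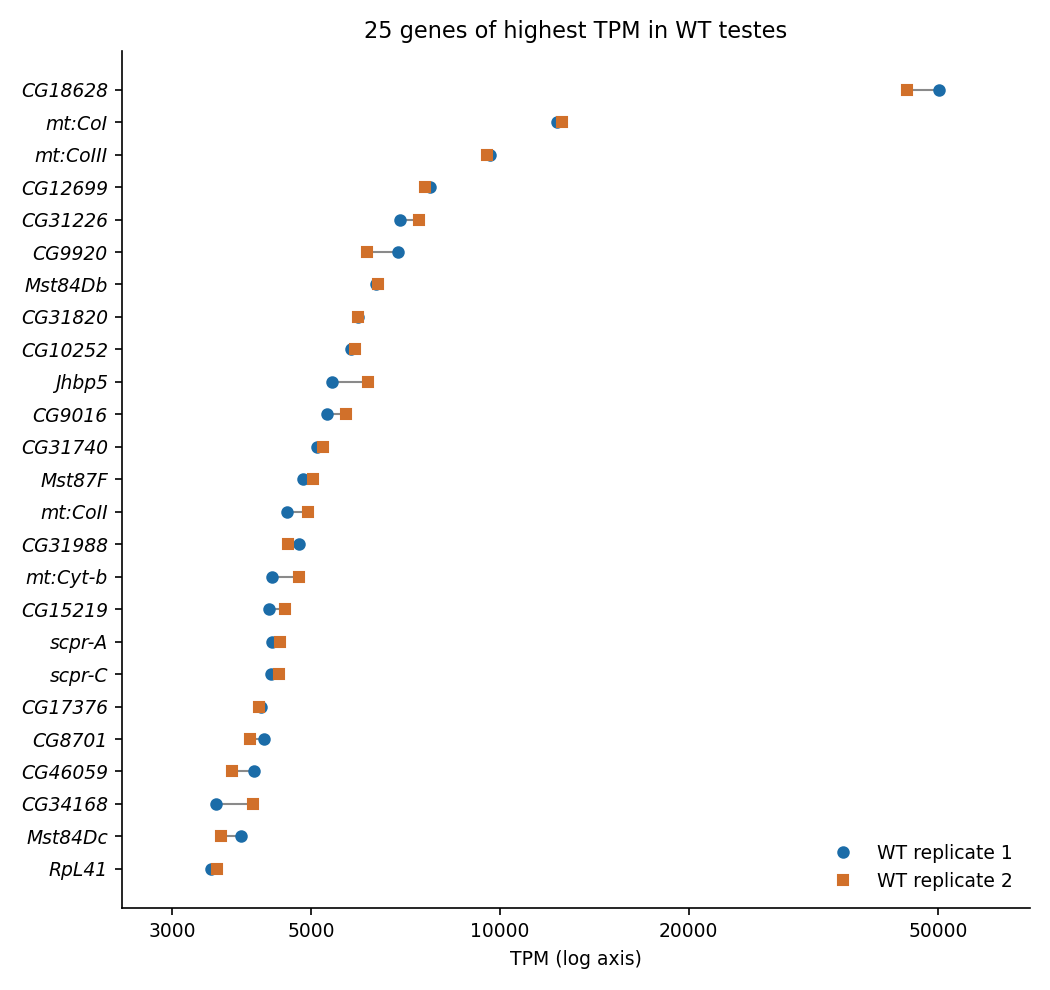
TPM (log axis) of the 25 genes of highest mean TPM in WT testes, with a circle for replicate 1 and a square for replicate 2. *CG18628* stands at 50125 and 44577 TPM, and the other 24 lie between 3456 and 12581 TPM with the libraries close together.

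Ordered by CPM, 14 of these 25 genes stayed among the first 25, and longer genes entered. *Ubi-p63E*, a polyubiquitin gene, took 4385 and 5946 CPM, and the libraries differed more for it than for mt:CoI (14922 and 14865 CPM). *CG4836* (3808 and 4517 CPM) and *Jhbp5* (4779 and 5331 CPM) were also higher in replicate 2. Among the others were *w-cup* (4386 and 3887 CPM), *S-Lap1* (4156 and 4063 CPM), *Pen*, an importin alpha (4001 and 3801 CPM), *betaTub85D*, the testis beta-tubulin of the axoneme (2937 and 3002 CPM), *Obp44a*, an odorant-binding protein gene (3044 and 2500 CPM), *Mst77F* (2883 and 2641 CPM) and *loopin-1* (2678 and 2657 CPM). *CG3124* and *CG31948* completed the list with *CG31988*, *CG17376* and the other genes already named. *Jhbp5* shares 86 exon bases with *Jhbp4* on the opposite strand and *Obp44a* overlaps *Pabp2*. The strand setting of the counting is not given in the sources used here, so reads of such partners cannot be told apart.

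The 100 genes of highest TPM (1243 to 47351 TPM) had features that set them off from the other 9222 detected genes. Their median merged exon length was 835 bases against 1965, and 32.0% consisted of a single exon block against 14.3%. Length enters the TPM, so this contrast is partly built into the ranking, but the 25 genes of highest CPM, a ranking that does not use length, also had a short median of 1125 bases. A CG number was the only name of 53.0% of the 100 genes and of 39.4% of the others. The 4 lists of sperm genes described below held 22 of the 100 and 24 of the other 9222. Ribosomal protein genes were 2 of the 100 and 83 of the others, and mitochondrially encoded genes 5 and 6.

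Some of the 100 genes were neighbours. Among the 95 nuclear genes, 25 lay in 11 groups in which each gene was within 10 kb of the next. The share of such neighbours in gene sets of other levels was not counted, so no excess of neighbours is claimed. The largest was on 3R (7363307 to 7366262), where *Mst84Da*, *Mst84Db*, *Mst84Dc* and *Mst84Dd* reached a summed 15857 TPM. A group on 2R (8367163 to 8372142) held *CG18449*, *CG2127* and *CG8701* with a summed 8604 TPM. *tHMG1* and *tHMG2* on 3R, *ocn* and *janB* on 3R, and *CG17376* and *CG17377* on 2L were pairs of adjacent genes. Sequences of neighbours were not compared, and where they are near-identical copies the counting may have split reads between them.

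Genes of the sperm tail and of sperm maturation had the highest median TPM of the lists, while the mitochondrially encoded genes took more of the counts (3.08% and 3.14%, against 2.10% and 2.07% for the sperm tail list). All 16 genes of the list were detected and 10 of them reached 1000 TPM, and the median over the list was 1892 and 1913 TPM, against 18.6 and 19.3 TPM for all detected genes. *Mst84Db* led with 6354 and 6393 TPM, followed by *Mst87F* (4858 and 5026 TPM) and *Mst84Dc* (3861 and 3592 TPM). These 3 belong to the family of proteins with cysteine, glycine and proline repeats that coat the sperm tail. The testis tubulin *betaTub85D* stood at 2029 and 2120 TPM, and *dj* (*don juan*), whose protein lies along the sperm mitochondria, at 1810 and 1909 TPM. The lowest member, *Mst36Fa*, was still at 117 and 142 TPM. *Pen* was on this list, although importin alpha has roles outside sperm, and it stood at 1975 and 1917 TPM. *Mst84Da* overlaps *MstProx* on the opposite strand.

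Sperm chromatin genes had the next highest median. All 8 were detected, and their median was 1404 and 1470 TPM. *Mst77F*, a linker-histone-like protein of sperm nuclei, was the highest at 3443 and 3223 TPM. *Mst33A* followed at 1709 and 1788 TPM and *tHMG1*, a high-mobility-group protein of spermatids, at 1735 and 1616 TPM, and the libraries placed these genes in opposite order. The protamine genes *ProtB* (1395 and 1433 TPM) and *ProtA* (811 and 845 TPM) differed from each other by more than the libraries did. The transition protein gene *Tpl94D* had 834 and 813 TPM and *Prtl99C*, the lowest, 469 and 478 TPM.

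The sperm leucyl aminopeptidases, which make up much of the paracrystalline material of the mitochondrial derivatives, were matched for 8 of 9 symbols. The median of the list was 868 and 916 TPM. *S-Lap1* was at 2492 and 2490 TPM, *loopin-1* at 1588 and 1611 TPM and *S-Lap7* at 1243 and 1448 TPM. The range reached down to *S-Lap5* with 103 and 124 TPM. The comet and cup genes, whose messages are made after meiosis and gather at the ends of elongating spermatids, spread over a wider range. Their median was 343 and 347 TPM over 14 of 15 symbols. *scpr-A* (4323 and 4461 TPM) and *scpr-C* (4317 and 4450 TPM) could not be ordered by these data, and *w-cup* came next with 2978 and 2698 TPM. *soti*, an inhibitor in the caspase pathway of spermatids, had 1406 and 1254 TPM, while *p-cup* had 38.9 and 38.6 TPM.

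The regulators of the spermatocyte program stood far below the sperm genes themselves. The 13 matched genes of tMAC and the testis TAFs were all detected, at a median of 45.9 and 49.7 TPM. The testis TAF *sa* was the highest with 172 and 150 TPM, followed by *mip40* (129 and 122 TPM) and *vis* (109 and 104 TPM). *aly*, the gene that names the *always early* class of meiotic arrest mutants, was at 25.2 and 20.9 TPM, and *kmg* was the lowest at 6.46 and 9.19 TPM. Genes of spermatocyte meiosis and translation had a median of 57.3 and 72.3 TPM. In that list *loopin-1*, counted above among the aminopeptidases, was followed by *eIF4E3*, a cap-binding protein of spermatocytes (981 and 1045 TPM), and *fest* (326 and 367 TPM). *bol*, the RNA-binding regulator of meiotic entry, stood at 107 and 121 TPM, *twe*, the meiotic Cdc25 phosphatase, at 39.8 and 57.2 TPM, and *CycB3* at 8.92 and 13.7 TPM. By CPM, 8 of these 10 genes were higher in replicate 2, where over all detected genes 47.6% were higher in replicate 1.

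Genes of the earliest germline and of the somatic support cells were lower again. The stem cell and spermatogonial list (7 of 8 symbols matched) had a median of 12.3 and 16.2 TPM. The piRNA-pathway gene *AGO3* was at 54.4 and 55.7 TPM, *tut* at 36.8 and 50.8 TPM and *bgcn* at 14.3 and 21.7 TPM, whereas their partner in ending the spermatogonial divisions, *bam*, was at 4.79 and 3.72 TPM from 33 and 15 counts. In the cyst cell list all 6 genes were detected, at a median of 2.65 and 3.46 TPM. The transcription factor genes *eya* (20.6 and 20.9 TPM) and *so* (11.6 and 11.1 TPM) of late cyst cells led it. *ptc* followed at 3.18 and 4.55 TPM, and *tj*, which marks early cyst cells, was at 2.02 and 1.38 TPM. The hub list had a median of 5.06 and 4.30 TPM. Its adhesion genes *shg* (8.57 and 10.3 TPM) and *Fas3* (6.63 and 8.69 TPM) are shared with other epithelia. *hh* was at 7.04 and 4.89 TPM. *upd1*, the ligand made by hub cells, had 32 and 24 counts, or 2.90 and 3.71 TPM.

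The sheath of the testis was represented by muscle and pigment genes. All 11 muscle genes were detected at a median of 12.7 and 12.0 TPM, with *Mp20* (37.9 and 31.6 TPM), *Act57B* (25.6 and 30.8 TPM) and *Mlc2* (21.6 and 21.1 TPM) the highest. Of 4 pigment cell genes, *w*, the ABC transporter subunit of eye color, had 91.4 and 130 TPM, *Sox100B* had 8.004 and 5.66 TPM and *bw* had 1.24 and 1.06 TPM. *st*, like *bw* a partner of *w* in pigment transport, had 8 and 4 counts. Septate junctions close the barrier that cyst cells form around the germline. All 17 matched genes of this list were detected at a median of 13.5 and 14.8 TPM. *nrv2*, a beta subunit of the sodium pump, was far above the others at 233 and 222 TPM. *kune*, a claudin, was at 74.7 and 61.0 TPM and *Atpalpha*, the pump's alpha subunit, at 39.7 and 44.3 TPM. *mesh*, *Tsp2A* and *Ssk* build the smooth junctions of gut epithelia. *mesh* (2.73 and 4.66 TPM) and *Tsp2A* (3.82 and 6.05 TPM) were among the lowest, unlike *Ssk* (22.99 and 22.04 TPM). Low levels were not particular to these genes, since *bark* (2.32 and 3.54 TPM) was the lowest and *dlg1* had 3.83 and 3.82 TPM.

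**Figure D2:**
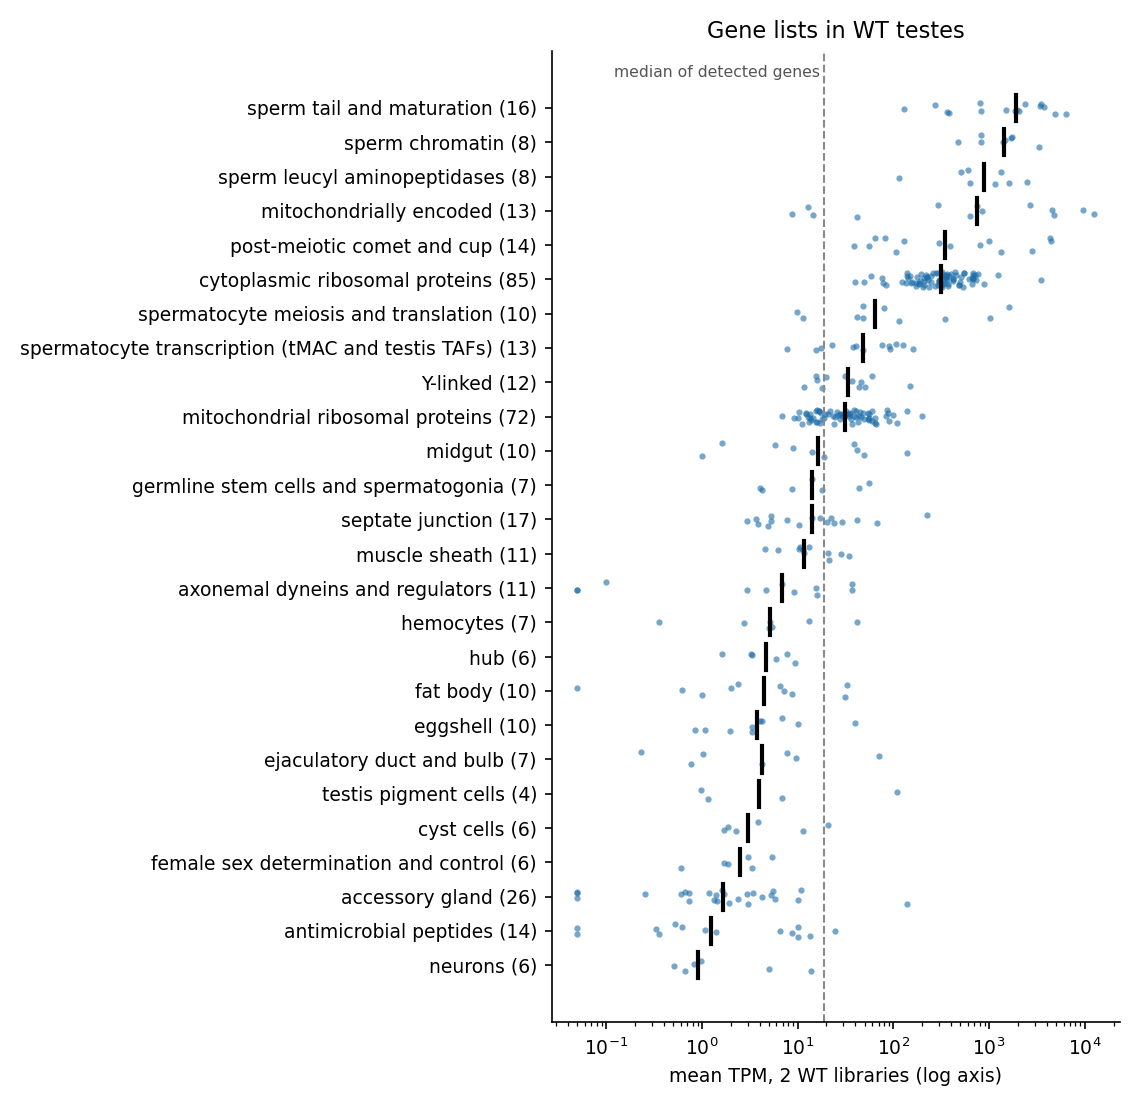
Mean TPM (log axis) of the members of 26 gene lists in WT testes, one point per gene, with the number of matched genes in brackets, a black bar at the median of the points and a dashed line at the median detected gene (19.0 TPM). Values under 0.05 TPM are drawn at 0.05, and the lists of sperm genes lie on the right while the lists for other organs lie mostly left of the dashed line.

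The fertility genes of the Y chromosome were present at moderate levels. All 12 Y-linked genes of the list were detected at a median of 33.7 and 34.2 TPM. *ARY* led at 145 and 155 TPM, followed by *Pp1-Y2* (61.8 and 57.1 TPM) and *CCY* (51.9 and 49.7 TPM). The axonemal dynein heavy chains *kl-3* (35.0 and 38.1 TPM), *kl-5* (14.8 and 17.2 TPM) and *kl-2* (15.0 and 16.2 TPM) are among the longest genes of the fly. The autosomal and X-linked axonemal genes included *tilB* at 35.2 and 38.4 TPM, a gene that shares exon bases with *wap*, transcribed the other way. The same list held *Dhc93AB* and also *nan* and *iav*, which are not genes of the axoneme itself. These are known from the cilia of chordotonal sense organs and had at most 2 counts in either library.

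Genes of other organs served as a check on the dissection. In the accessory gland list, 3 of 26 genes reached 10 counts in both libraries, and the summed share of the list was 0.00691% and 0.00802% of the counts. *SP*, the sex peptide gene, had 1 count in each library. The highest member, *Acp95EF* (140 and 139 TPM), lies across *Spase22-23* on the opposite strand. *Acp98AB* (8.08 and 13.8 TPM, from only 5 and 5 counts) and *Acp36DE* (9.48 and 10.7 TPM, from 98 and 65 counts) came next. *Acp32CD*, *Acp29AB* and *Acp63F* had up to 4 counts, and 8 genes (*Acp24A4*, *Sfp96F*, *Sfp24Ba*, *Sfp33A1*, *Sfp87B*, *intr*, *lectin-46Cb* and *SP*) stayed under 3 counts in both. From the ejaculatory duct and bulb, *EbpIII* was at 74.6 and 67.0 TPM, *Dup99B* had 4 and 10 counts and *Est-6*, which overlaps *thoc6*, had 34 and 39, while *EbpII* and *Obp56g* had at most 1 count.

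Other lists were not absent, and the midgut list was not low. Its median was 12.4 and 20.6 TPM with 8 of 10 genes detected, against 18.6 and 19.3 TPM for all detected genes. That was above the medians of the cyst cell (2.65 and 3.46 TPM) and hub (5.06 and 4.30 TPM) lists. The midgut list was led by the amylase *Amy-p* (168 and 108 TPM), its near-identical copy *Amy-d* (59.0 and 40.3 TPM) and *alphaTry* (36.5 and 46.03 TPM). Fat body genes had a median of 3.92 and 4.76 TPM, with the lipophorin precursor *apolpp* at 34.3 and 30.6 TPM, *FASN1* at 28.5 and 33.5 TPM, the yolk protein gene *Yp1* at 7.37 and 9.89 TPM and *Fbp1* at 0. In the hemocyte list *crq* (41.1 and 42.9 TPM), *Hml* (14.6 and 11.7 TPM) and *NimC1* (4.90 and 5.87 TPM) were measured, and *He* had 0 and 1 counts. Neuronal genes had a median of 1.18 and 0.785 TPM, with *Cadps* at 13.4 and 13.9 TPM, *nSyb* at 5.97 and 4.03 TPM and *elav* at 0.976 and 0.991 TPM. Eggshell genes, made by ovarian follicle cells, showed the level at which markers of a tissue that males lack were counted. Their highest count was 75, for *Cp15* (41.2 and 37.5 TPM), followed by *Cp38* (8.38 and 12.0 TPM) and *Cp36* (7.09 and 6.49 TPM). The eggshell median was 4.53 and 3.59 TPM, with 3 of 10 genes detected. That was above the cyst cell median (2.65 and 3.46 TPM) and close to the hub median (5.06 and 4.30 TPM). Low levels in the cyst cell and hub lists were thus not set apart from the eggshell level. Among regulators of sex, *Sxl* was at 5.81 and 4.88 TPM, *msl-2* at 3.38 and 3.27 TPM and *fru* at 3.37 and 2.75 TPM. The part of RNA from other organs in any level above was not tested.

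Genes of protein synthesis and of mitochondria formed the general background. All 85 cytoplasmic ribosomal protein genes were detected, with a median of 334 and 295 TPM and a range of mean levels from 39.8 TPM (*RpS28a*) to 3499 TPM (*RpL41*). *RpLP2* (1241 and 1245 TPM) and *RpS27A* (890 and 887 TPM) followed *RpL41*. The list took 2.13% and 1.95% of the counts, about the same share as the 16 sperm tail genes with 2.10% and 2.07%. In the TPM scale the median sperm tail gene was 6.08 ± 0.581 (SD, n = 2) times the median ribosomal protein gene. The 72 mitochondrial ribosomal protein genes had a median of 30.7 and 31.3 TPM and were led by *mRpS17* (193 and 207 TPM), *mRpS7* (134 and 146 TPM) and *mRpS33* (121 and 98.3 TPM).

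The 13 protein-coding genes of the mitochondrial genome took 3.08% and 3.14% of the counts, and their levels were very uneven. Cytochrome c oxidase and cytochrome b genes ranged from 4329 to 12581 TPM. *mt:ATPase6* was at 2585 and 2719 TPM. The subunits of complex I were lower, from *mt:ND1* at 808 and 869 TPM and *mt:ND4* at 671 and 811 TPM to *mt:ND3* at 251 and 333 TPM and *mt:ND2* at 43.1 and 41.0 TPM. *mt:ND6* had 22 and 15 counts, *mt:ND4L* 18 and 7, and *mt:ATPase8* 5 and 3. *mt:ND4L* overlaps *mt:ND4* and *mt:ATPase8* overlaps *mt:ATPase6* on the same strand, where reads may have gone to the longer neighbour or to neither.

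Many basic proteins of *Drosophila* have a second gene that is known for its expression in the testis. The levels of listed paralogs and of their canonical genes were set side by side for 60 of 64 listed pairs. Which gene of a pair was the paralog was fixed by the list. Not every listed paralog, such as *alphaTub84D* or *RpS10b*, is known as a testis gene. The paralog was higher in both libraries in 49 pairs, and more than 2-fold higher in 35 and more than 4-fold higher in 23. The canonical gene was higher in both libraries in 7 pairs, and in 4 pairs the libraries gave opposite orders. The median ratio over all pairs was 1.48 and 1.54 on the log2 scale of TPM. With the longest transcript in place of merged exon length, *RpS19b* changed sides. The size of a ratio depends on the length used, and *UQCR-11L* fell from a mean log2 ratio of 4.92 to 4.35. *Ntf-2r* had 593 and 326 counts against 402 and 202 for *Ntf-2*, a narrower gap than in TPM. *RpS10b* had 864 and 481 counts against 290 and 169 for *RpS10a*, a wider gap than in TPM. The numbers of pairs over 2-fold and 4-fold were not repeated with other lengths.

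The respiratory chain had the most pairs on the list. The paralog was higher in both libraries in 17 of 19 pairs, with a median log2 ratio of 1.66 and 1.88. *COX4L* reached 1896 and 2005 TPM against 74.0 and 65.5 TPM for *COX4*, and *COX7CL* 830 and 876 TPM against 58.0 and 52.1 TPM for *COX7C*. *Cyt-c-d*, the cytochrome c of spermatids, was at 1248 and 1290 TPM against 159 and 129 TPM for *Cyt-c-p*. *UQCR-11L* was at 320 and 341 TPM against 9.47 and 12.6 TPM for *UQCR-11*. Its log2 ratio was above that of *COX4L* in replicate 1 (5.08 against 4.68) and below it in replicate 2 (4.76 against 4.94), so these pairs had no common order. *COX5BL*, *COX7AL*, *UQCR-14L*, *ND-49L*, *ND-24L*, *SdhBL*, *ND-B14.5AL*, *ND-20L*, *UQCR-6.4L*, *ND-51L2*, *ATPsynGL*, *ND-51L1* and *ATPsynCF6L* lay between log2 ratios of 0.66 and 2.93. *SdhAL* and *SdhA* were level, with 92.8 and 90.6 TPM against 88.2 and 98.5 TPM. *ATPsynbetaL*, at 31.0 and 32.7 TPM, was below *ATPsynbeta*, at 196 and 198 TPM.

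Mitochondrial membrane proteins behaved alike, with all 4 paralogs more than 2-fold higher in both libraries. *Porin2* was at 1138 and 1103 TPM against 200 and 178 TPM for *porin*. The import receptor subunit *tomboy20* was at 919 and 1111 TPM against 234 and 252 TPM for *Tom20*, and *tomboy40* exceeded *Tom40* by a mean log2 ratio of 2.62. *fzo*, the mitofusin that acts in the fusion of spermatid mitochondria, was at 72.5 and 87.4 TPM, and the general mitofusin *Marf* at 16.8 and 17.5 TPM. The glycolytic paralogs *Pglym87* (612 and 652 TPM) and *Hex-t2* (303 and 311 TPM) were well above *Pglym78* (46.8 and 38.3 TPM) and *Hex-A* (32.9 and 39.9 TPM), whereas *Hex-t1* was at 46.2 and 43.9 TPM.

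Testis subunits of the proteasome exceeded the canonical subunits in both libraries in 12 of 14 pairs, by a median log2 ratio of 1.11 and 1.10. *Rpn12R* (546 and 535 TPM) was far above *Rpn12* (46.04 and 48.04 TPM), and the ATPase subunits *Rpt3R* and *Rpt6R* had mean log2 ratios of 2.45 and 2.44. *Rpt4R* and *Prosalpha6T* had mean log2 ratios of 1.24 and 1.47. Among the beta subunits *Prosbeta2R1* and *Prosbeta2R2* were at 1.29 and 1.53, *Prosbeta4R1* and *Prosbeta4R2* at 0.50 and 0.65, and *Prosbeta5R2* at 1.03. *Prosalpha4T2* (0.84) and *Prosalpha4T1* (0.13) were above *Prosalpha4*. *Prosbeta5R1* was at 74.8 and 86.8 TPM against 77.7 and 65.3 TPM for *Prosbeta5*, an order that differed between the libraries. *Prosalpha3T*, at 78.9 and 83.6 TPM, was below *Prosalpha3*, at 169 and 180 TPM.

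The testis TAFs *can* (81.0 and 72.9 TPM), *sa* and *nht* (96.9 and 85.6 TPM) were each above their general counterparts, *Taf5* (5.15 and 4.497 TPM), *Taf8* (10.8 and 11.2 TPM) and *Taf4* (9.74 and 9.02 TPM), while *mia* and *Taf6* differed by a mean log2 ratio of 0.55. The widest ratio of all belonged to *twe*, whose mitotic counterpart *stg* had 10 and 5 counts, or 0.923 and 0.788 TPM. *betaTub85D* exceeded *betaTub56D* (153 and 161 TPM), but the alpha-tubulins went the other way: *alphaTub84B* had 1093 and 1283 TPM, *alphaTub84D* 169 and 177 TPM and *alphaTub85E* 69.8 and 70.3 TPM. *Ntf-2r*, a retrocopy of the nuclear transport factor *Ntf-2*, had a mean log2 ratio of 2.90, and *eIF4E3* exceeded *eIF4E1* (159 and 165 TPM).

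Ribosomal paralogs were divided. *RpL22-like* was above *RpL22* at 217 and 171 TPM against 55.5 and 60.1 TPM. *RpS19b*, *RpS10b* and *RpL10Aa* exceeded their partners by mean log2 ratios of 0.16 to 0.33 only. *RpS10b* (157 and 149 TPM) and *RpS10a* (136 and 135 TPM) would count the other way if *RpS10a* were taken as the paralog. *RpS5b* (197 and 169 TPM) was below *RpS5a* (303 and 299.9 TPM), *RpS15Ab* (53.1 and 44.7 TPM) below *RpS15Aa* (319 and 327 TPM) and *RpS28a* (28.8 and 50.8 TPM) below *RpS28b* (357 and 291 TPM). The chaperones *Hsp60B* (226 and 252 TPM) and *Hsp60C* (205 and 274 TPM) were close to *Hsp60A* (210 and 202 TPM), and *eIF4G2* (42.1 and 54.0 TPM) was close to *eIF4G1* (46.7 and 46.04 TPM). Where paralogs are similar in sequence, reads that fit both could have been lost or split.

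**Figure D3:**
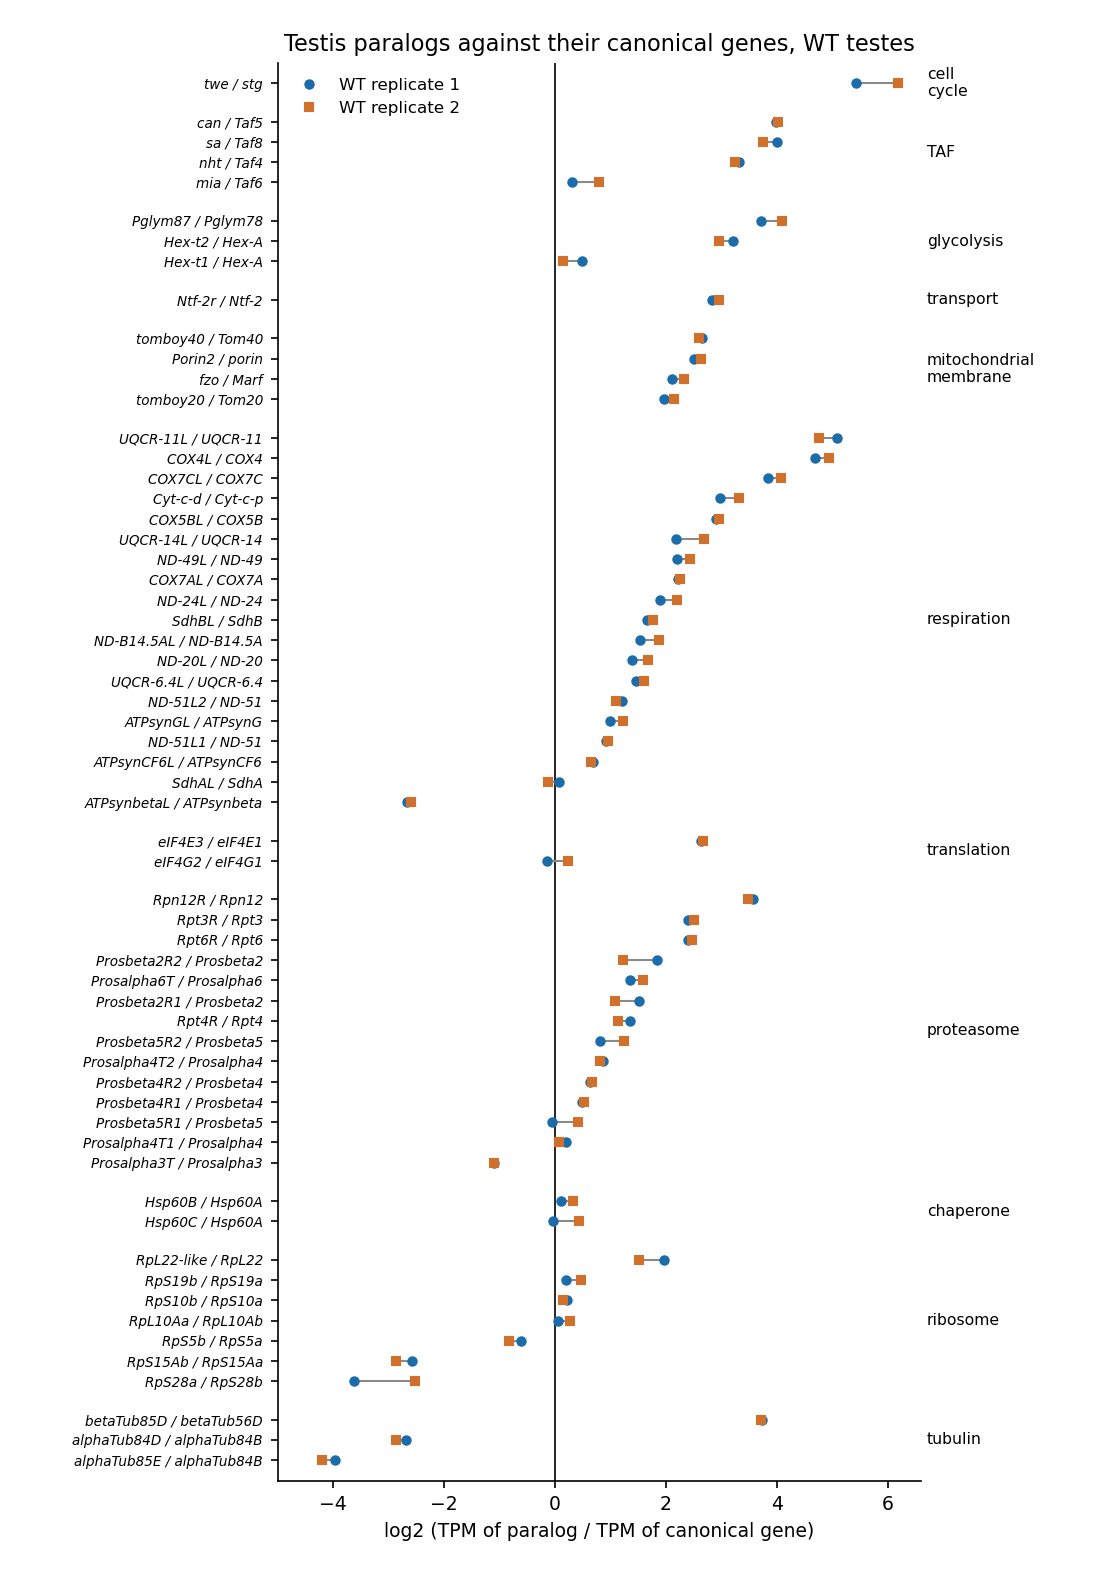
The log2 ratio of TPM of each listed paralog to its canonical gene for 60 pairs grouped by family, with a circle for WT replicate 1 and a square for WT replicate 2. Points right of the line at 0 are pairs with the higher paralog, 49 of 60 in both libraries, and the 7 pairs wholly to the left are the alpha-tubulins, 3 ribosomal pairs, *ATPsynbetaL* and *Prosalpha3T*.

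Genes of the X chromosome had lower levels than autosomal genes. The median detected X-linked gene stood at 12.8 and 13.4 TPM, against 20.0 and 20.8 TPM for the 7708 detected genes of 2L, 2R, 3L and 3R, a ratio of 0.642 ± 0.00178 (SD, n = 2). Each autosomal arm was above the X, from 18.2 and 19.5 TPM on 3R to 22.6 and 23.3 TPM on 2L, and the arms differed among themselves by less than any of them differed from the X. The small chromosome 4 had 21.5 and 24.2 TPM over 67 genes. In CPM, which is not corrected for length and so also varies with it, the ratio of the medians of X to autosomes was 0.712 ± 0.00341 (SD, n = 2).

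The gap was widest among abundant genes. At the 10th percentile of detected genes the X stood at 0.742 of the autosomal level, at the 75th percentile at 0.541 and at the 99th percentile at 0.455. The minimum of 10 counts is a floor common to both groups, and its part in the ratio at low percentiles was not tested. The X held 15.8% of the genes but 9.38% and 9.29% of the counts. Levels of 1000 TPM were reached by 0.322% of X-linked genes (7 genes) and by 1.06% of genes on the autosomal arms (122 genes), although the share of genes detected was alike, 69.8% and 67.2%. Of the 100 genes of highest TPM, 2 were X-linked. They were *TrxT*, the testis thioredoxin (2184 and 1923 TPM), and *CG1394* (1313 and 1357 TPM), followed by *CG16782* (1235 and 1249 TPM). *Tsf1*, the iron carrier transferrin, was the seventh X-linked gene at 1088 and 971 TPM. On chromosome 4 the highest gene was *RpS3A* (372 and 372 TPM). The 17 detected genes of the Y had a median of 38.5 and 48.8 TPM.

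**Figure D4:**
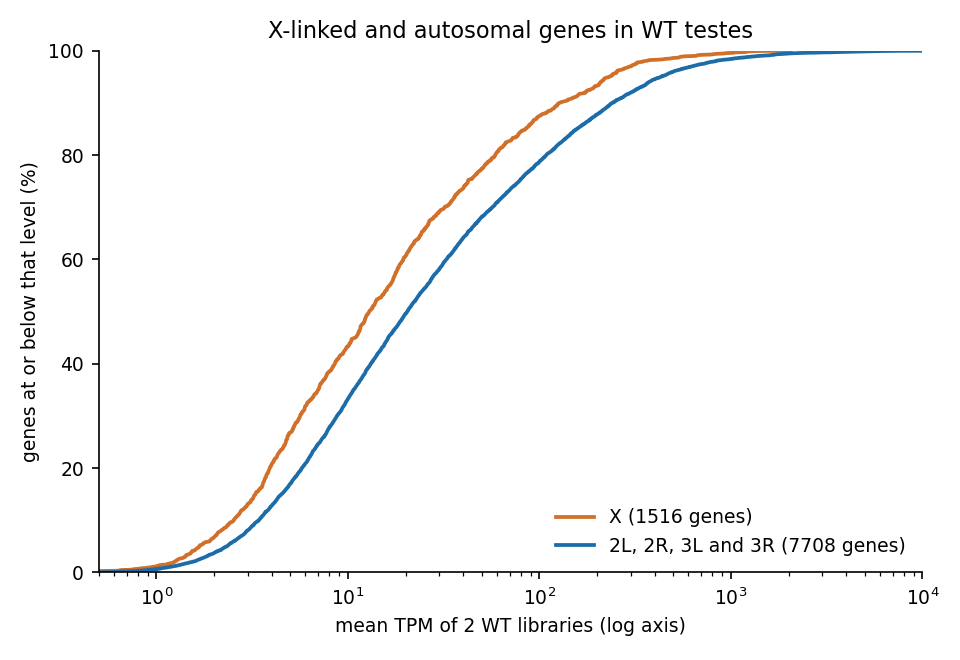
Cumulative share of detected genes (vertical axis, %) at or below a given mean TPM (horizontal log axis) for 1516 X-linked genes and 7708 genes of the 4 large autosomal arms in WT testes. The X curve lies left of the autosomal curve over the range plotted, with medians of 12.9 and 20.4 TPM.

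The libraries agreed closely for most genes. Across 9322 detected genes, which are not independent replicates, Pearson's r of log2 CPM was 0.985 and Spearman's rho 0.984. The SD of the log2 ratio between the libraries was 0.34, and it fell from 0.49 for 1356 genes with a mean of 10 to 30 counts to 0.15 for 786 genes with 1000 counts or more. Counting error alone would give 0.48 and 0.05 for the same genes. For 1683 genes with 300 to 1000 counts the SD was 0.26, against 0.097 from counting. The biological coefficient of variation between the libraries, estimated with edgeR over detected genes, was 0.0933. Of the 100 genes of highest TPM in each library, 95 were shared.

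The ratio between the libraries varied with gene length, without a steady trend. Among genes with a mean of at least 100 counts, the median log2 ratio of replicate 2 to replicate 1 was -0.05 for 1658 genes of 1000 to 2000 exon bases and 0.13 for 659 genes of 4000 to 8000 bases. In the former group 36.9% of genes were higher in replicate 2 and in the latter 71.5%. The 124 genes under 500 bases had a median of 0.016 with 55.6% higher in replicate 2, and the 236 genes of 8000 bases or more had a median of 0.099. The short ribosomal protein genes were higher in replicate 1 in 71 of 85 cases, and the 8 detected axonemal genes, which include the very long dynein heavy chains, were all higher in replicate 2, where over all detected genes 47.6% were higher in replicate 1. The part of length in these differences was not tested.

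Only 18 of the 5573 genes with at least 100 counts in the higher library differed more than 2-fold between the libraries, 12 of them higher in replicate 1. *Muc11A*, a mucin gene, was the extreme, with 11 and 766 counts, or 2.45 and 285 CPM. *His2A:CG31618*, a copy of the histone H2A gene, had 45 and 166 counts, and *Jon99Cii*, a midgut serine protease, 61 and 103. *Prosalpha1*, a proteasome subunit, had 168 and 237 counts beside 3555 and 2022 for its paralog *Prosalpha1R* on the same strand nearby, and the split of reads between these paralogs was not tested. In the other direction *ninaE*, the major rhodopsin of photoreceptors, had 251 and 30 counts (55.8 and 11.1 CPM). *Ggamma30A* (115 and 19 counts), a subunit of the visual G protein, *nrv3* (101 and 19 counts) and *cpx*, a complexin of synapses (167 and 40 counts), were higher in the same library, as were *CG34277* (450 and 75 counts) and *CG42807* (139 and 22 counts).

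**Figure D5:**
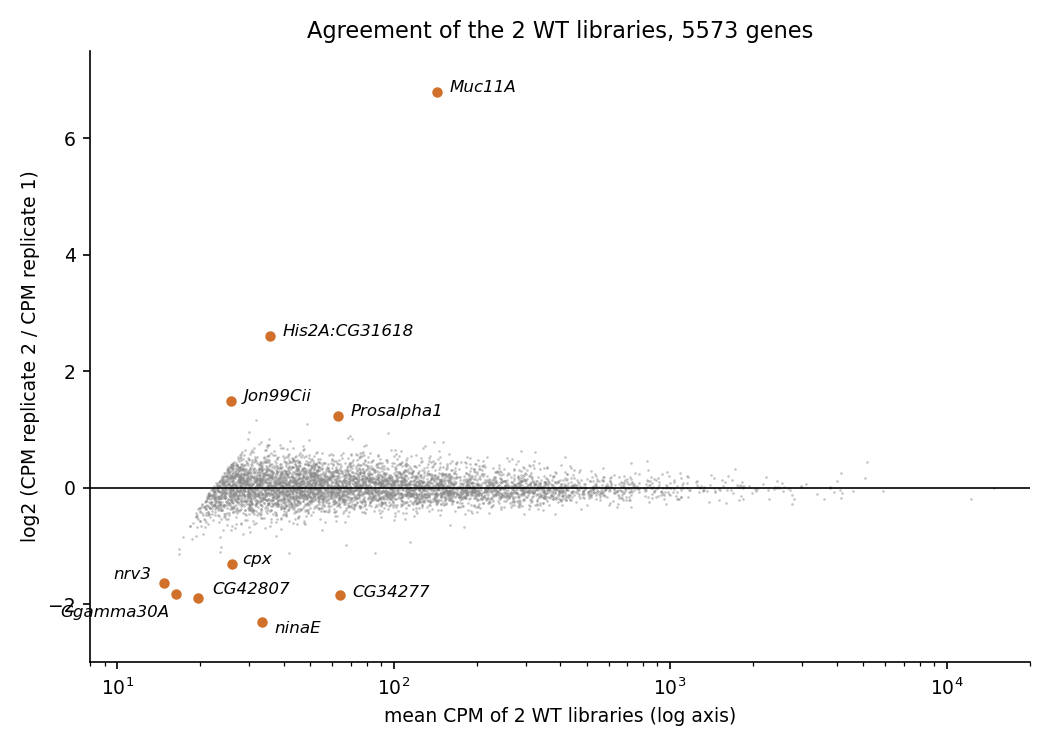
The log2 ratio of CPM, replicate 2 over replicate 1, against mean CPM (log axis) for 5573 genes with at least 100 counts in the higher WT library, after adding 0.5 counts. The 10 genes farthest from 0 are orange, with *Muc11A* at 6.80 and *ninaE* at -2.30.

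Genes that mark cells outside the testis tube were among those that differed. By CPM, 5 of 6 genes of the neuron list were higher in replicate 1, against 47.6% of all detected genes. *Syt1* had 35 and 4 counts and *para* 44 and 9, while *Cadps* and *elav* were close in TPM. The summed level of this list was 114 and 93.2 CPM. *PPO2* (527 and 145 counts), a phenoloxidase of crystal cells in the hemolymph, was 2.17-fold higher in replicate 1, and the hemocyte genes *Pxn* (137 and 45 counts), *eater* (43 and 12) and *Sr-CI* (53 and 16) were also higher there, but *crq* and *NimC1* were not, and the hemocyte list summed to 291 and 242 CPM. Of the antimicrobial peptide genes, *AttB* had 102 and 29 counts, *CecA1* 24 and 5 and *AttC* 41 and 14, with 7 of 14 genes under 3 counts in both libraries (*DptB*, *CecC*, *Mtk*, *Def*, *CecB*, *CecA2* and *AttD*). The serine proteases *Jon65Aiii* (15 and 24 counts) and *Jon65Aiv* (43 and 46 counts) went with *Jon99Cii* toward replicate 2, while *Amy-p* and *Amy-d* did not. Their part in the other levels was not tested.

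At the level of transcripts the division of a gene's counts was less certain than its sum. Of 13771 genes, 6854 were listed with more than 1 transcript. Among 3593 of these with at least 50 counts in each library, the most abundant transcript held a median of 79.8% of the gene's counts, and in 28.9% of the genes a single transcript held at least 90% in both libraries. *betaTub56D* is such a gene, with 99.7% and 99.5% of its counts on a single transcript of 1596 bases. *RpL32* had 99.8% and 98.9% of its counts on its shortest transcript of 524 bases.

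The libraries did not always divide a gene alike. In 16.7% of the 3593 genes the most abundant transcript differed between the replicates, and 9.62% did so among 1590 genes with at least 200 counts. The 5 genes in which most counts changed place were *hydra*, *CG31988*, *Ank*, *eRF1* and *CG5790*. *Ank*, an ankyrin gene on chromosome 4 (115074 to 129849), had 1245 and 783 counts in all. In replicate 1 its transcript of 5101 bases held 71.5% of them and in replicate 2 it held 0, while the transcript of 5176 bases went from 7.23% to 87.6%. *CG5790* had 734 and 0 counts on its transcript of 2422 bases and 489 and 947 on the other. *hydra*, a young X-linked gene with alternative first exons, had 7272 and 3768 counts, of which 25.6% changed place, and *eRF1*, the translation release factor, had 39.5% changed. In *CG31988* the change was 5.64% of 19438 and 10918 counts.

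This bears on how reads were assigned. Of 23012 transcripts of genes with several transcripts, 11866 (51.6%) shared every exon base with other transcripts of the gene. Counts were nevertheless listed for 7438 of these, and they made up 52.2% and 52.3% of the counts of the genes concerned. The rule by which a read in shared exons was given to a transcript is not given in the sources used here, and the gene sums above do not depend on the division unless reads were dropped or counted more than once.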

How the data were processed

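Testes of 5-day-old WT (Canton S) males were profiled in 2 libraries of 30 pairs each, read as paired ends of 150 bases. According to the study's methods, reads were trimmed with Trimmomatic 0.40, aligned with Hisat2 2.2.2 and counted per transcript with htseq-count 2.0.3. The reference release and strand setting are not given in the sources used here. The authors deposited raw counts per transcript for 4 libraries. Transcripts were joined to genes through Ensembl release 115 (BDGP6.54), summed per gene and scaled to CPM, or to TPM by merged exon length. The 10 unmatched transcripts were left out. Depth was 4498060 and 2692475 counts. The mutant libraries were not analysed here.

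Genes named in the text were the 25 of highest mean TPM and of highest mean CPM, the 3 highest members of each gene list and those under 3 counts in both libraries, all paralog pairs, the 10 genes most divergent between libraries with at least 100 counts in the higher one (0.5 counts added), and the 5 with most counts moved between transcripts. Other genes were named after their values were seen. No non-coding gene was analysed here. The members and lists were chosen with earlier results of these data known. Scripts were run in Python 3.11.15 and R 4.3.3 with edgeR 4.0.16, whose dispersion estimate was tested on simulated data. DESeq2 1.42.0 size factors, TMM factors, other lengths, other count minimums, single transcripts and each library alone were alternatives.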

Additional observations from a re-analysis of the deposited data

Results flagged for a closer look

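The 10 transcripts with no gene in the annotation were not used in any description above. They held a summed 26 counts in WT replicate 1 and 44 counts in WT replicate 2. The 3 counts that a count of 0 allows hold for a single feature, so these sums cannot be set against them. No other value stood out by a fixed rule, since groups of 2 libraries are too small for a search for outlying samples.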

How the results depend on the processing

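The share of counts in the 10 most abundant genes was 6.45% on the mean, 6.23% over single transcripts and 5.30% without mitochondrially encoded genes, and 6.44% to 6.46% with each library alone. Detected genes numbered 9322 and, under other minimums, 10414 (1 CPM in both), 11556 (1 count in both) and 12525 (1 count in either). The ratio of the sperm tail to the ribosomal protein median was 4.67 when transcript lengths were weighted by counts, and 5.67 to 6.49 with each library alone. The SD of the log2 ratio between libraries rose to 0.58 with a minimum of 1 count and to 0.58 over single transcripts, and it was 0.33 without the 10 most divergent genes, an alternative chosen after seeing the data. TMM and DESeq2 factors shift every gene alike and left it at 0.34. The X to autosome ratio was 0.699 with a minimum of 1 count and 0.660 without the 100 genes of highest TPM, the latter chosen after seeing the data, and 0.640 to 0.643 with each library alone. The number of pairs with the higher paralog was 48 with the longest transcript and 50 to 52 with each library alone. The share of genes whose top transcript differed was 9.62% with a minimum of 200 counts. Of 26 list medians, none moved by over 1.5 times under 3 other lengths, and of 25 top genes *CG17376* rose to 6433 TPM with weighted lengths and *RpL41* to 5321 TPM with lengths less a read, which took *CG18628* to 69423 TPM. No paired analysis was possible because a single group was described and no test was made. Depth limits the low genes, and with 2 libraries no p-value was given.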
